A study of Rattus norvegicus with 16 samples.

Results

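Transcripts of the nuclear RNA polymerases and of the general transcription factors that load them onto genes were followed in rat hepatoma H35 cells in which Pdrg1 had been silenced. The genes were chosen by name, as every gene on the array called Polr1, Polr2 or Polr3, Gtf2, Gtf3, or Taf followed by a digit. This gave 68 genes of 26269 on the array, read by 95 of 30367 probes. Of the 68 genes, 45 had 1 probe, 19 had 2 probes and 4 had 3 probes, and each gene is described by its brightest probe unless another is named.

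Eukaryotic nuclei hold 3 RNA polymerases. Pol I makes the large ribosomal RNA precursor, Pol II makes messenger RNA and Pol III makes transfer RNA, 5S ribosomal RNA and other small RNAs. Each is built from its own large subunits plus small subunits, some of which all 3 enzymes share. General factors bring the enzymes to promoters: TFIID (the TATA-binding protein with its TAFs) and TFIIA to TFIIH for Pol II, SL1 for Pol I and TFIIIA, TFIIIB and TFIIIC for Pol III. The polymerases are put together in the cytoplasm by chaperones that include the R2TP complex and prefoldin-like proteins, and Pdrg1 is a prefoldin-like protein of this kind.

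Gene expression was measured on 16 one-colour arrays, 4 biological replicates in each of 4 groups. CN-10 is a single stable clone that carries a plasmid with a negative control shRNA. Clones 4-18 and 3-44 are single stable clones that carry the silencing plasmids shRNA4 and shRNA3, and shRNA3T is a pool of cells enriched after transfection with shRNA3. All 4 groups had been transfected and put under G418 at 1.8 mg/ml from 48 hours after transfection for 2 weeks, and the 3 clones then had 2 further weeks at 4 mg/ml. A clone differs from another in its descent as well as in its plasmid, and the clones were kept for reproducible RT-qPCR behaviour, so in 4-18 and 3-44 the effect of the shRNA and that of the clone cannot be told apart. As CN-10 is also a single clone, and shRNA3T is a pool that did not have the 4 mg/ml step, every comparison with CN-10 carries the descent of that clone, and the one with shRNA3T the difference in selection too. Each group was hybridised on its own slide, which leaves the slide confounded with the group.

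The arrays were of unequal brightness. The share of spots well above background ran from 53.1% to 64.1% in 4-18 and from 64.7% to 74.3% in the other groups, and no spot was saturated. Replicate 4 of 4-18 stood apart after background correction, with a median of 8.77 on the log2 scale where the other 15 arrays lay between 6.75 and 7.38, although its median raw signal of 172 was like that of replicate 1 of the clone (173). All 12 hepatocyte markers, such as albumin (Alb) and transferrin (Tf), were well above background on every array of CN-10, 3-44 and shRNA3T, and 10 of 12 were on every array of 4-18. Against CN-10, 11.6% of all genes rose and 12.4% fell in 4-18, 3.45% and 4.69% in 3-44, and 5.13% and 7.04% in shRNA3T. Of the 12 markers, 1 rose and 6 fell in 4-18, 4 rose and 0 fell in 3-44, and 5 rose and 1 fell in shRNA3T. Their summed log2 level was 18.83 to 19.25 over the CN-10 arrays, 18.61 to 19.11 over those of 4-18, 18.70 to 19.77 for 3-44 and 19.17 to 19.55 for the shRNA3T pool, and the part of this shift in the results below was not tested. Marker lists of fibroblasts, endothelium, leukocytes and bile duct cells had summed levels from 8.69 to 10.31.

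Pdrg1 itself was lower in each silenced group. In CN-10 it stood at 13.41, 13.88, 13.51 and 13.77 in normalised log2 intensity, in 4-18 at 11.57, 13.33, 13.34 and 13.25, in 3-44 at 11.89, 12.86, 12.90 and 12.95, and in shRNA3T at 12.39, 12.90, 12.97 and 12.90. The highest silenced value lay under the lowest control value, with log2 differences of -0.77 in 4-18, -0.99 in 3-44 and -0.85 in shRNA3T (exact two-sided permutation p = 0.0286 each, the smallest that 4 against 4 arrays allow). With limma's moderated test, fitted without a replicate block and adjusted over all probes, the adjusted p was 0.129, 0.105 and 0.143. Replicate 1 was the lowest array in every group, CN-10 included, and without replicate 1 of every group limma gave -0.41, -0.82 and -0.79 (adjusted p = 0.00647, 0.000306 and 0.000212).

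Of the 68 genes, 60 were well above background on all 16 arrays. Gtf2a1l, a testis form of TFIIA, and Taf7l, a germ cell form of TAF7, were above it on 0 arrays, and Taf9b was on 4. The 68 genes had a median replicate SD of 0.20 for CN-10, 0.30 for 4-18, 0.21 for 3-44 and 0.13 for shRNA3T, beside 0.18, 0.28, 0.21 and 0.17 for all genes above background on every array. A pseudogene named after the gene is listed in the rat gene table for 11 of the 68 (Polr2e, Polr2h, Polr2l, Polr3d, Polr3f, Polr3g, Taf12, Taf15, Taf5l, Taf7l and Taf9), and whether such copies add to their signals was not tested.

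Members moved both ways. Across the 68 genes the median log2 fold change against CN-10 was -0.08 in 4-18, -0.06 in 3-44 and -0.05 in shRNA3T, beside 0.00, -0.01 and -0.01 over all genes. The quartiles of the members were -0.39 and 0.25 in 4-18, -0.26 and 0.14 in 3-44 and -0.34 and 0.16 in shRNA3T. The members' median in 4-18 was -0.35 with a common median (-0.13 without 4-18 replicate 4) and -0.60 with the deposited values (-0.74 without it), where that of all genes was 0.37 (0.32) and 0.13 (-0.27). In all, 30 genes changed in at least 1 of the 3 comparisons (44.1%, beside 31.1% of all genes) and 38 in none, 18 genes in 1 comparison and 6 in all 3 (8.82%, beside 2.79%). Among genes above background on all 16 arrays, 46.7% of the 60 members and 51.4% of all such genes changed in at least 1, and 10% and 4.71% in all 3. These 3 comparisons share the CN-10 arrays, so they are not independent of each other. A change below means an adjusted p under 0.05 from limma, with Benjamini-Hochberg adjustment over all probes, and a fold is between means of normalised log2 intensities.

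**Figure D1:**
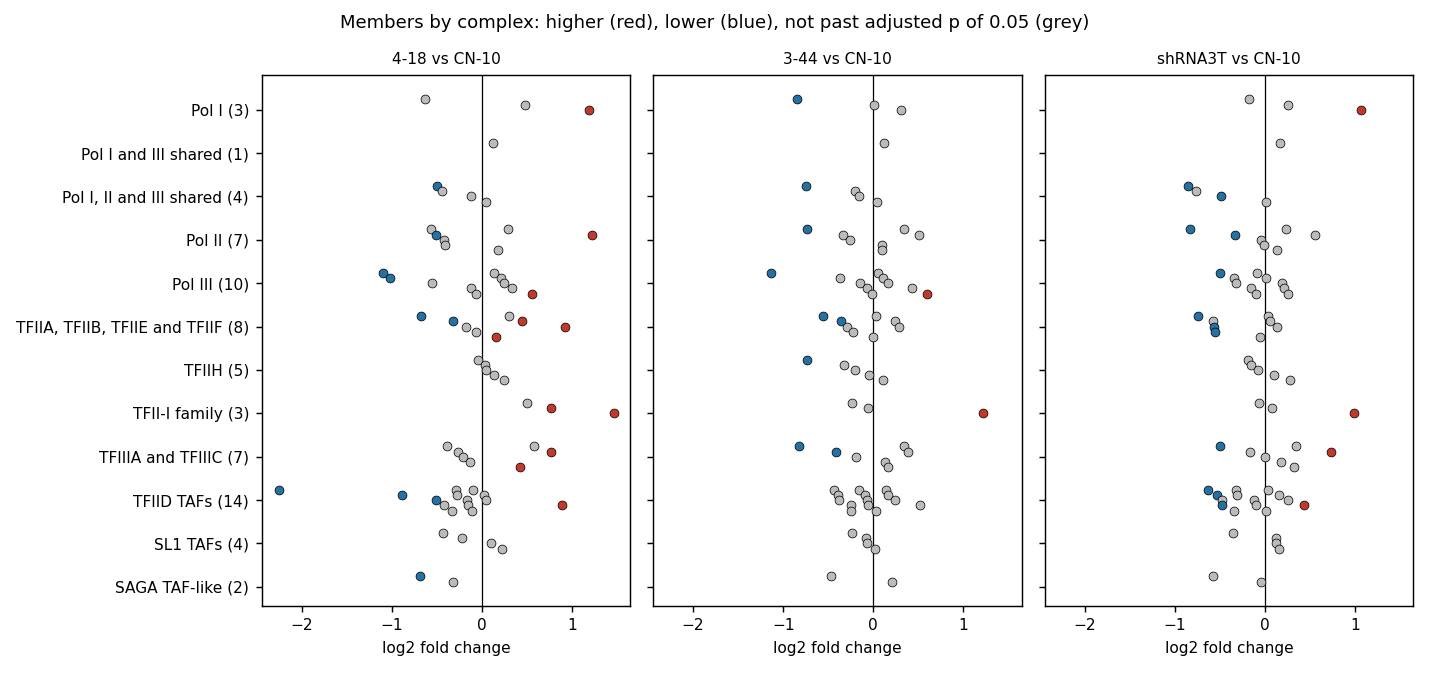
Log2 fold change of each of the 68 genes (points) against CN-10, in rows by complex with the number of genes in brackets, for 4-18, 3-44 and shRNA3T. The TFII-I gene Gtf2ird1 is the rightmost point of its row in all 3 panels, the 2 Polr genes lowest in 4-18 lie in the Pol III row, and the lowest point of all is the Taf9 probe at -2.26 in 4-18.

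In 4-18 against CN-10, 11 genes rose and 10 fell. Over all genes tested the share that rose was 11.6% and the share that fell 12.4%, against 16.2% and 14.7% of the 68 genes. Among genes above background on all 16 arrays the shares were 21.2% and 17.4%, and 10 and 9 of the 60 such members moved (16.7% and 15%), both below the shares of all such genes. The 6 genes past a 2-fold change were Gtf2ird1, Polr1a and Polr2b upward and Polr3f, Polr3g and the Taf9 probe downward, where 6.15% of all genes passed that limit. Among the 11 risers, Gtf2a1l (named here after its values were seen) was not above background on any array and has no interpretable fold. The count fell from 21 to 12 without CN-10 replicate 3.

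In 3-44 against CN-10, 2 genes rose and 9 fell, where 3.45% of all genes rose and 4.69% fell. Among genes above background on all arrays these shares were 6.38% and 7.94%, and 2 (3.33%) and 9 (15%) of the 60 readable members moved. The 2 risers were Gtf2ird1 and Polr3d, and 2 genes passed 2-fold, Gtf2ird1 and Polr3f, against 1.47% of all genes. The count fell from 11 to 4 without CN-10 replicate 2, to 5 without CN-10 replicate 4 or without 3-44 replicate 4, to 6 without CN-10 replicate 3 and to 7 without CN-10 replicate 1.

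In shRNA3T against CN-10, 4 genes rose and 12 fell, where 5.13% of all genes rose and 7.04% fell. The same shares among genes above background on all arrays were 8.9% and 12.6%, and 4 (6.67%) and 12 (20%) of the 60 readable members moved. Only Polr1b passed 2-fold, against 2.39% of all genes. The count fell from 16 to 9 without CN-10 replicate 3, and to 10 without CN-10 replicate 2, shRNA3T replicate 3 or shRNA3T replicate 4.

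The split between higher and lower genes depended on how the arrays were scaled. In 4-18 the split of 11 higher and 10 lower became 8 and 9 with cyclic loess, 6 and 9 with the 75th percentile of the processed signal, 5 and 20 with a common median and 0 and 20 with the deposited values, which carry no scaling between arrays. Those last 2 scalings take in the shifted background correction of 4-18 replicate 4, and without that array the common median gave 10 higher and 17 lower but the deposited values 1 higher and 39 lower. In 3-44 the 2 higher and 9 lower became 2 and 7 with cyclic loess, 0 and 4 with the 75th percentile, 1 and 1 with a common median (2 and 6 without 4-18 replicate 4) and 0 and 0 with the deposited values (0 and 3). In shRNA3T the 4 higher and 12 lower became 3 and 13 with cyclic loess and 1 and 10 with the 75th percentile, and the 16 changed genes became 0 with a common median and 11 with it and without 4-18 replicate 4.

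**Figure D2:**
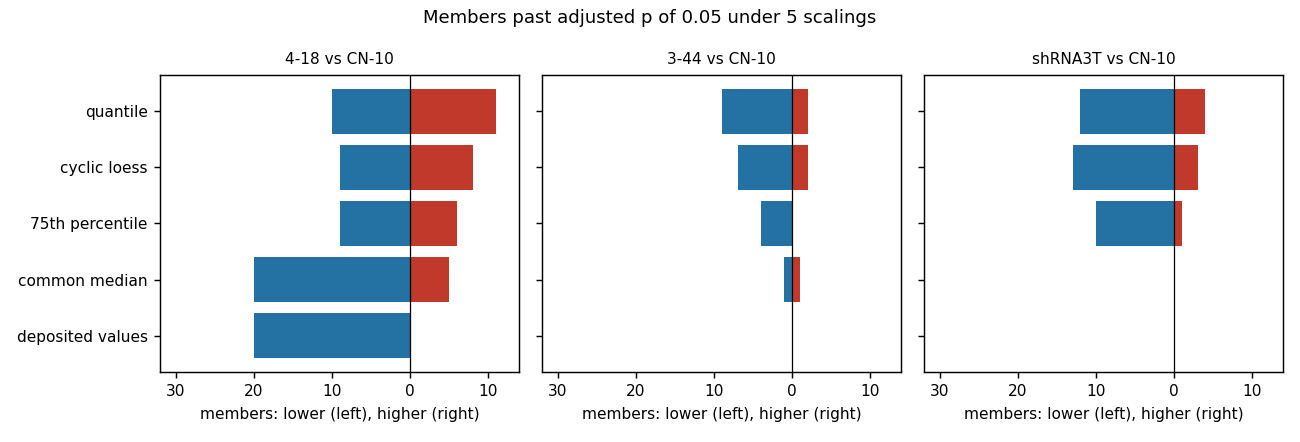
Number of the 68 genes past an adjusted p of 0.05 under 5 scalings, lower to the left and higher to the right of 0, for each comparison with CN-10. In 4-18 the quantile bar is nearly even (11 higher, 10 lower) and the bar for the deposited values lies wholly on the lower side (20 lower), and in shRNA3T the bars for the common median and the deposited values are empty.

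The members that fell in all 3 silenced groups were 4 genes: Polr2h, Polr2i, Polr3f and Gtf2e2. They are 5.88% of the 68, where 1.28% of all genes fell in all 3, and 6.67% of the 60 readable members, where 1.76% of all genes above background on every array did. Gtf2ird1 rose in all 3 (1.15% of all genes did, and 2.31% of those above background on every array), and Gtf3c5 rose in 4-18 and shRNA3T and fell in 3-44, with calls that some settings lost, as given below. Gtf2e2 lies outside the rule for named genes, was picked out after its values were seen and was not followed through the alternative settings. Of 34 such settings, 25 lost the Polr3f call in shRNA3T and 16 the Polr2h call in 4-18. On all 16 arrays, a common median or the deposited values left 0 members changed in shRNA3T, so none fell in all 3 groups.

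Polr2h (probe at chr11:82421820-82421879 of rn4, minus strand) encodes the RPB8 subunit, which all 3 polymerases share. In CN-10 its levels were 13.35, 14.03, 13.95 and 14.07, in 4-18 they were 12.85, 13.38, 13.60 and 13.57, in 3-44 they were 12.83, 13.18, 13.22 and 13.18, and in shRNA3T they were 13.04, 13.04, 12.95 and 12.94. All arrays of 3-44 and shRNA3T lay below all arrays of CN-10, while 4-18 overlapped CN-10 through CN-10 replicate 1. The log2 fold change was -0.50 ± 0.17 (SE) in 4-18, -0.75 in 3-44 and -0.85 in shRNA3T (limma, adjusted p = 0.0484, 0.0146 and 0.00400). Of 34 alternative settings, 16 lost the call in 4-18, 5 in 3-44 and 3 in shRNA3T. Among these, the 4-18 value did not hold without CN-10 replicate 2, 3 or 4 (adjusted p = 0.128, 0.113 and 0.129) or without 4-18 replicate 1 or 2 (adjusted p = 0.145 and 0.0737), whereas a second Polr2h probe gave -0.61 with an adjusted p of 0.00104.

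That second probe, A_64_P086406, shares 16 bases with the first, and another, A_64_P086404, lies 17 bases from the first and reads a stretch of its own. On the second probe the CN-10 arrays stood at 13.41, 13.28, 13.33 and 13.24 and no silenced array exceeded 12.95. Its log2 fold changes were -1.15 in 3-44 and -1.21 in shRNA3T (adjusted p = 1.71e-05 and 5.8e-06), and A_64_P086404 gave -0.84, -0.93 and -1.08, of which shRNA3T passed the test (adjusted p = 0.0283). All 3 probes read lower in all 3 groups.

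Polr2i (chr1:85489959-85490095 of rn4, minus strand) encodes RPB9, a small Pol II subunit. CN-10 stood at 12.14, 12.13, 12.08 and 12.06, 4-18 at 11.83, 11.59, 11.52 and 11.44, 3-44 at 11.36, 11.41, 11.38 and 11.31, and shRNA3T at 11.17, 11.36, 11.29 and 11.24. No array of a silenced group reached the lowest CN-10 array. The log2 fold change was -0.51 ± 0.08 (SE) in 4-18, -0.74 in 3-44 and -0.83 in shRNA3T (adjusted p = 0.000215, 3.27e-05 and 5.7e-06). In 4-18 it passed the test under every alternative setting tried, and in 3-44 and shRNA3T it failed only with a common median (-0.72 and -0.81) and with the deposited values (-0.86 and -0.84).

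Polr3f (chr3:133090010-133090070 of rn4, plus strand) encodes RPC39 (also called RPC6), a Pol III subunit that contacts TFIIIB. Its 4 CN-10 arrays lay between 9.92 and 10.10, its 4-18 arrays at 9.39, 8.52, 9.19 and 9.00, its 3-44 arrays at 8.81, 9.04, 9.00 and 8.79 and its shRNA3T arrays at 9.68, 9.72, 9.51 and 9.27. The groups did not overlap CN-10. The log2 fold change was -1.02 ± 0.15 (SE) in 4-18, -1.13 in 3-44 and -0.49 in shRNA3T (adjusted p = 0.000163, 0.000238 and 0.0469), and with the 75th percentile scaling the shRNA3T value was -0.28 (adjusted p = 0.418). The shRNA3T call was lost under 25 of 34 alternative settings. A second probe, 5022 bases away on the rn4 map, was also lower in 4-18 (-1.37, adjusted p = 0.00017) but stood at -0.07 in 3-44 and -0.17 in shRNA3T (adjusted p = 0.902 and 0.743).

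Gtf2e2 (chr16:62169260-62169319 of rn4, minus strand) encodes the beta subunit of TFIIE, which recruits TFIIH to the Pol II promoter complex. CN-10 stood at 12.23, 11.99, 12.05 and 11.94, 3-44 at 11.50, 11.51, 11.58 and 11.40, shRNA3T at 11.55, 11.58, 11.44 and 11.44, and 4-18 at 12.02, 11.53, 11.70 and 11.68. All arrays of 3-44 and shRNA3T lay below CN-10, and 4-18 replicate 1 lay inside the CN-10 range. The log2 fold change was -0.32 ± 0.10 (SE) in 4-18, -0.55 in 3-44 and -0.55 in shRNA3T (adjusted p = 0.0249, 0.00207 and 0.0014).

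**Figure D3:**
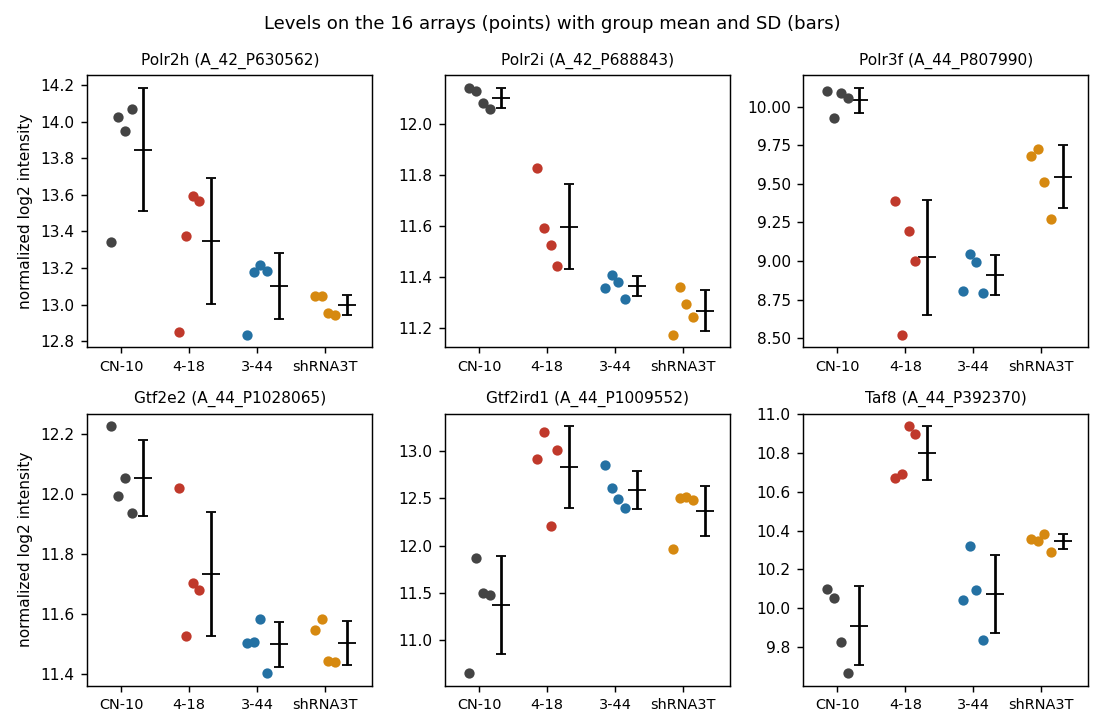
Normalised log2 intensity of 6 genes on each of the 16 arrays (points, 4 per group) with the group mean and SD (bars). Polr2i shows no overlap between CN-10 (12.06 to 12.14) and the silenced groups, Gtf2ird1 is higher on every silenced array than on any CN-10 array, and Polr2h overlaps CN-10 in 4-18 alone.

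Gtf2ird1 (chr12:23426032-23426091 of rn4, plus strand) belongs to the TFII-I family, whose proteins bind initiator and related elements, and the human GTF2IRD1 gene lies in the Williams syndrome region. CN-10 stood at 10.64, 11.87, 11.49 and 11.47, 4-18 at 12.91, 13.20, 12.21 and 13.01, 3-44 at 12.86, 12.61, 12.50 and 12.40, and shRNA3T at 11.96, 12.50, 12.51 and 12.48. The silenced groups did not overlap CN-10. The log2 fold change was 1.47 ± 0.25 (SE) in 4-18, 1.22 in 3-44 and 0.99 in shRNA3T (adjusted p = 0.000434, 0.00569 and 0.0145). A second probe gave 1.61, 0.91 and 0.38, and passed the test in 4-18 alone (adjusted p = 0.00104, 0.0831 and 0.542). With the 75th percentile scaling the 3-44 and shRNA3T values of the first probe were 0.70 and 0.77 and missed the test (adjusted p = 0.132 and 0.0666).

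Gtf2ird1, Gtf2i and Gtf2ird2 are neighbours on rat chromosome 12 of the rn4 map, 119 and 105 kb apart between their probes. Gtf2ird2 rose in 4-18 by 0.77 on the log2 scale (adjusted p = 0.00172), was at -0.05 and 0.08 in the others, and was picked out after its values were seen. Its second probe stood at 0.21, 0.26 and -0.04 and passed in none. Gtf2i, the founding TFII-I factor, stood at 0.51 in 4-18 without passing the test (adjusted p = 0.454), and its second probe at 1.16, 0.28 and 0.53, also without passing (adjusted p = 0.0831, 0.816 and 0.585).

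The upstream sequences of members that moved the same way in all 3 groups are shown to let their promoter elements be compared. RefSeq's rat promoter table on GRCr8 held 58 of the 68 symbols, including 3 of the 4 that fell in all 3 groups. Each line gives the 250 bases before the annotated start, read toward the gene, with capitals for any match on either strand to 7 motifs. The GC box, bound by Sp1-like factors, was searched as GGGCGG. The core bound by ETS factors was searched as CCGGAAG and that of the activator NRF1 as GCATGCGC. The YY1 core was AANATGGC, where N is any base. The CCAAT box, which the factor NF-Y binds, was searched by its own name. The E-box of basic helix-loop-helix factors was searched as CACGTG and the TATA box that the TATA-binding protein reads as TATAAA. A stretch can match more than 1 motif where motifs overlap.
Polr2h, chr11:93700872-93701121, minus strand: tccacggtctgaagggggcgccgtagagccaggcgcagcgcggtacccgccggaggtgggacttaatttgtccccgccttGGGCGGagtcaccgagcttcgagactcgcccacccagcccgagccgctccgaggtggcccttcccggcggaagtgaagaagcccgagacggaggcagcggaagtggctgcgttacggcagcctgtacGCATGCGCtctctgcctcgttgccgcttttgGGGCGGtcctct
Polr2i, chr1:94610726-94610975, plus strand: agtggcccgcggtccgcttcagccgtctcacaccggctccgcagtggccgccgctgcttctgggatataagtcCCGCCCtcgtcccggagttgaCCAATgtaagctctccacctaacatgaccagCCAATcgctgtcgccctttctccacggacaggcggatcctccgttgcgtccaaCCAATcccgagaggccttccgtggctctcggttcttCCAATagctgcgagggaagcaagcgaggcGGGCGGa
Polr3f, chr3:152361548-152361797, plus strand: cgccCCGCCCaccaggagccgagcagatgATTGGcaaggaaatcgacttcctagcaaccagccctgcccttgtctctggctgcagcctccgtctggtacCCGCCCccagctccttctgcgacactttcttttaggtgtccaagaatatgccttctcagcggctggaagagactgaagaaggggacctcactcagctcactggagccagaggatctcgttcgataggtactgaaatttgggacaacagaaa
Gtf2ird1, chr12:27890496-27890745, plus strand: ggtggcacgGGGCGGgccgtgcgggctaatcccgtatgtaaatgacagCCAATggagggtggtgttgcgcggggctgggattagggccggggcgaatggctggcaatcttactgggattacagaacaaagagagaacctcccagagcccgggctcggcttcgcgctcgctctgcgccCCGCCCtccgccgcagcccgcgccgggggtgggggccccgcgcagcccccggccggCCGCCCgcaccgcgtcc

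All 4 windows held a GC box, with 2 matches each in Polr2h, Polr2i and Polr3f and 3 in Gtf2ird1. A GC box was in 60.3% of the 58 member windows and in 30.5% of all 33469 promoter windows of the table. Members were counted by the first listed window of each symbol and the table by every window, so the sets were built differently. Polr2i held 4 CCAAT boxes, Polr2h held 1 NRF1 core and the windows of Polr3f and Gtf2ird1 held 1 CCAAT box each. Over the members the CCAAT box was in 34.5% and over all windows in 34%, the ETS core in 31% and 7.27%, the E-box in 19% and 5.59%, the NRF1 core in 5.17% and 2.2%, the YY1 core in 5.17% and 4.23%, and the TATA box in 6.9% and 12.9%. Median GC content was 57.8% in the member windows and 51.2% in all of the table, and its part in these shares was not tested. The 4 printed windows held 0 matches to the ETS core, E-box, YY1 core or TATA box letters.

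Of the 6 largest subunits, Polr2b and Polr1a rose in 4-18 and Polr1b rose in shRNA3T. Over all genes 11.6% rose in 4-18 and 5.13% in shRNA3T, and over those above background on every array 21.2% and 8.9%. Polr2b, which encodes the second largest Pol II subunit, stood at 12.64, 12.76, 12.94 and 13.15 in CN-10 and at 14.53, 14.07, 14.13 and 13.67 in 4-18. All 4 arrays of 4-18 were higher, by 1.22 ± 0.20 (SE) on the log2 scale (adjusted p = 0.000379). In 3-44 and shRNA3T the difference was 0.50 and 0.56 (adjusted p = 0.170 and 0.0938), and the value of 4-18 was 0.21 with the 75th percentile scaling (adjusted p = 0.425). Polr2a, the largest Pol II subunit, did not pass the test in any group, at 0.29, 0.10 and 0.14.

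Polr1a, the largest Pol I subunit, rose in 4-18 on its brightest probe, at 11.68, 10.80, 11.32 and 9.95 beside 9.77, 9.76, 9.39 and 10.07 in CN-10 (1.19 ± 0.35, SE, adjusted p = 0.0230). Replicate 4 of 4-18 lay inside the CN-10 range, and the second Polr1a probe, 18030 bases away, stood at -0.69 with an adjusted p of 0.329. Polr1b, the second largest Pol I subunit, rose in shRNA3T, where its arrays stood at 10.78, 10.72, 10.79 and 10.71 beside 9.91, 9.58, 9.49 and 9.72 in CN-10. That was 1.07 ± 0.32 (SE, adjusted p = 0.0395), and the values of 0.48 in 4-18 and 0.01 in 3-44 did not pass. The shRNA3T call was lost under 13 of 34 alternative settings, with 0.56 at the lowest, and the Polr1a call in 4-18 under 11.

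Polr1e, a Pol I subunit of the dimer that helps initiation, fell in 3-44 by 0.84 on the log2 scale (adjusted p = 0.0313) and stood at -0.63 in 4-18 (adjusted p = 0.0538). Its second probe rose in 4-18 by 0.52 (adjusted p = 0.00318), and stood at 0.25 in 3-44 (adjusted p = 0.244), so its probes pointed in opposite directions in both clones. The 3-44 call was lost under 12 of 34 alternative settings, and over all 34 the value ran from -0.95 to -0.30. The Pol I and Pol III subunit Polr1c stood between 0.12 and 0.17 in the 3 comparisons and passed in none. Its CN-10 mean rests on 2 arrays and its 4-18 mean on 3, since outlier spots were set aside.

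Of the small subunits shared by all 3 polymerases, Polr2h fell as above. Polr2e, which encodes RPB5, fell in shRNA3T by 0.48 on the log2 scale (adjusted p = 0.0158), with arrays at 15.30, 15.77, 15.84 and 15.73 beside 16.23, 16.12, 16.09 and 16.13 in CN-10. A second Polr2e probe that shares 54 bases with it gave -0.39 (adjusted p = 0.0391), while the mean of all Polr2e probes was 0.21 in shRNA3T (adjusted p = 0.463). The remaining probe, 1483 bases away, read 1.04 in 4-18, 1.17 in 3-44 and 0.95 in shRNA3T, with adjusted p = 0.0194, 0.0256 and 0.0755, in the opposite direction from the first in 3-44 and shRNA3T. Its shRNA3T mean rests on 3 arrays because an outlier spot was set aside.

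Polr2f stood at -0.77 in shRNA3T, with all 4 arrays below CN-10 (11.94, 12.55, 12.44 and 12.46 beside 12.57 to 13.36), and an adjusted p of 0.0782. Its second probe rose in 4-18 by 0.60 (adjusted p = 0.000548), where the first stood at -0.12. Polr2l did not pass in any group. Polr1d and Polr2k were not analysed here under those names.

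Pol III subunits other than Polr3f moved singly. Polr3g, a subunit of a Pol III form found in undifferentiated and tumour cells, stood at 12.74, 12.50 and 12.64 on 3 CN-10 arrays and at 10.94, 11.57, 11.73 and 11.91 in 4-18. It fell by 1.09 ± 0.20 (SE) on the log2 scale (adjusted p = 0.000977), stood at -0.02 in 3-44 and -0.10 in shRNA3T, and was -0.45 in 4-18 with the 75th percentile scaling (adjusted p = 0.193). The outlier spot of CN-10 replicate 1 was set aside. Its other probes gave -0.85 and -0.05 in 4-18, neither past the test (adjusted p = 0.0826 and 0.840). Polr3gl, its paralogue, stood at 0.14, -0.07 and 0.22 and passed in none.

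Polr3d rose in 4-18 by 0.55 and in 3-44 by 0.59 on the log2 scale (adjusted p = 0.0204 and 0.0339) and stood at 0.01 in shRNA3T, but with the deposited values the 4-18 value was -0.16. The 3-44 call was lost under 12 of 34 alternative settings, with 0.087 at the lowest. Polr3a and Polr3b, the 2 largest Pol III subunits, passed in no comparison with CN-10.

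TFIIA, TFIIB, TFIIE and TFIIF were read by 8 genes, of which 3 rose and 2 fell in 4-18, 2 fell in 3-44 and 3 fell in shRNA3T. The 3 that rose include Gtf2a1l, which was above background on 0 arrays. Of all genes 11.6% rose and 12.4% fell in 4-18, and 4.69% fell in 3-44 and 7.04% in shRNA3T. Gtf2f1, the large subunit of TFIIF, stood between 15.06 and 15.21 in CN-10, at 14.54, 14.86, 14.86 and 14.86 in 3-44 and at 14.74, 14.56, 14.54 and 14.46 in shRNA3T. It fell by 0.36 in 3-44 and by 0.57 in shRNA3T on the log2 scale (adjusted p = 0.0379 and 0.00145), and stood at -0.07 in 4-18. The 3-44 call was lost under 21 of 34 alternative settings, with -0.02 under the 75th percentile scaling (adjusted p = 0.978). Gtf2f2, the small TFIIF subunit, rose in 4-18 by 0.92 (adjusted p = 0.0164), and read -0.06 with the 75th percentile scaling (adjusted p = 0.871).

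Gtf2b, which encodes TFIIB, fell in shRNA3T by 0.74 on the log2 scale (adjusted p = 0.0447), where replicate 1 at 10.37 lay apart from the others at 11.62, 11.58 and 11.48. All 4 were below the lowest CN-10 array at 11.77, and the call was lost under 18 of 34 alternative settings. Without shRNA3T replicate 1 the Gtf2b value was -0.44 (adjusted p = 0.0510). Of the 5 TFIIH genes, Gtf2h1 alone changed, in 3-44, by -0.74 (adjusted p = 0.0497), and 4 of its 4 arrays were below CN-10. Its 3-44 arrays stood at 7.87, 9.04, 9.01 and 8.71 beside 9.13 to 9.66 in CN-10, and without 3-44 replicate 1 the value was -0.47 (adjusted p = 0.0781). That call was lost under 26 of the 34 settings, and 4.69% of all genes fell in 3-44.

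TFIID genes were 14 of the 68. In 4-18, 1 rose and 3 fell, in 3-44 0 passed, and in shRNA3T 1 rose and 3 fell. Of all genes 11.6% rose and 12.4% fell in 4-18, 3.45% and 4.69% in 3-44, and 5.13% and 7.04% in shRNA3T. The TFIID genes that fell in 4-18 and in shRNA3T include the probe named Taf9, which may not read Taf9, as given below. Taf8, which helps build TFIID in the nucleus, stood at 10.10, 10.05, 9.83 and 9.67 in CN-10, at 10.67, 10.69, 10.94 and 10.90 in 4-18 and at 10.36, 10.35, 10.38 and 10.29 in shRNA3T. It rose by 0.89 ± 0.11 (SE) in 4-18 and by 0.43 in shRNA3T (adjusted p = 3.55e-05 and 0.0195), without overlap in either, and a second probe stood at 0.17 and -0.01, not past the test. Of 34 alternative settings, 3 lost the Taf8 call in 4-18 and 8 in shRNA3T, with 0.14 and 0.21 at the lowest.

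The lowest log2 fold change among the 68 genes came from a probe that the array names Taf9. On it CN-10 stood at 14.56, 14.64, 14.49 and 14.49, 4-18 at 12.94, 12.25, 12.04 and 11.93, 3-44 at 14.35, 14.12, 14.13 and 14.07, and shRNA3T at 14.30, 13.91, 13.80 and 13.67. It fell by 2.26 ± 0.18 (SE) on the log2 scale in 4-18 (adjusted p = 4.34e-07) and by 0.63 in shRNA3T (adjusted p = 0.0358), and stood at -0.37 in 3-44.

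The accession on that probe belongs in the rat gene table to Ak6, an adenylate kinase gene next to Taf9, so it may not read Taf9. The Taf9 probe proper, A_44_P269125, lies 8136 bases away on chromosome 2 and stood at 12.99, 13.44, 13.50 and 13.46 in CN-10 and at 12.93, 12.62, 12.72 and 12.71 in 4-18. It fell in 4-18 by 0.61 on the log2 scale (adjusted p = 0.00505) and stood at 0.12 in 3-44 and 0.04 in shRNA3T. With it in place of the other, the count of changed members was 21 in 4-18, as before, and 15 rather than 16 in shRNA3T.

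Taf2, a large TFIID subunit, fell in 4-18 by 0.89 (adjusted p = 0.0352) and its second probe stood at -0.11. That call was lost under 9 of 34 alternative settings. Taf6l, a TAF6-like subunit of the SAGA coactivator, fell in 4-18 by 0.68 (adjusted p = 0.0141), and stood at -0.58 in shRNA3T (adjusted p = 0.0581) and at 0.21 in 3-44.

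Gtf3c5, a TFIIIC subunit, stood at 11.04, 10.77, 9.96 and 10.90 in CN-10, at 11.30, 11.60, 11.48 and 11.39 in 4-18, at 9.51, 10.47, 9.75 and 9.62 in 3-44 and at 11.50, 11.36, 11.26 and 11.52 in shRNA3T. It rose by 0.77 in 4-18 and by 0.74 in shRNA3T and fell by 0.83 in 3-44 on the log2 scale (adjusted p = 0.0184, 0.0408 and 0.0313). Of 34 alternative settings 8 lost the call in 4-18, 16 in shRNA3T and 14 in 3-44, and the lowest values of the rises were 0.080 in 4-18 and 0.17 in shRNA3T. The second Gtf3c5 probe stood at 0.25, -0.08 and -0.24 and passed in none.

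**Figure D4:**
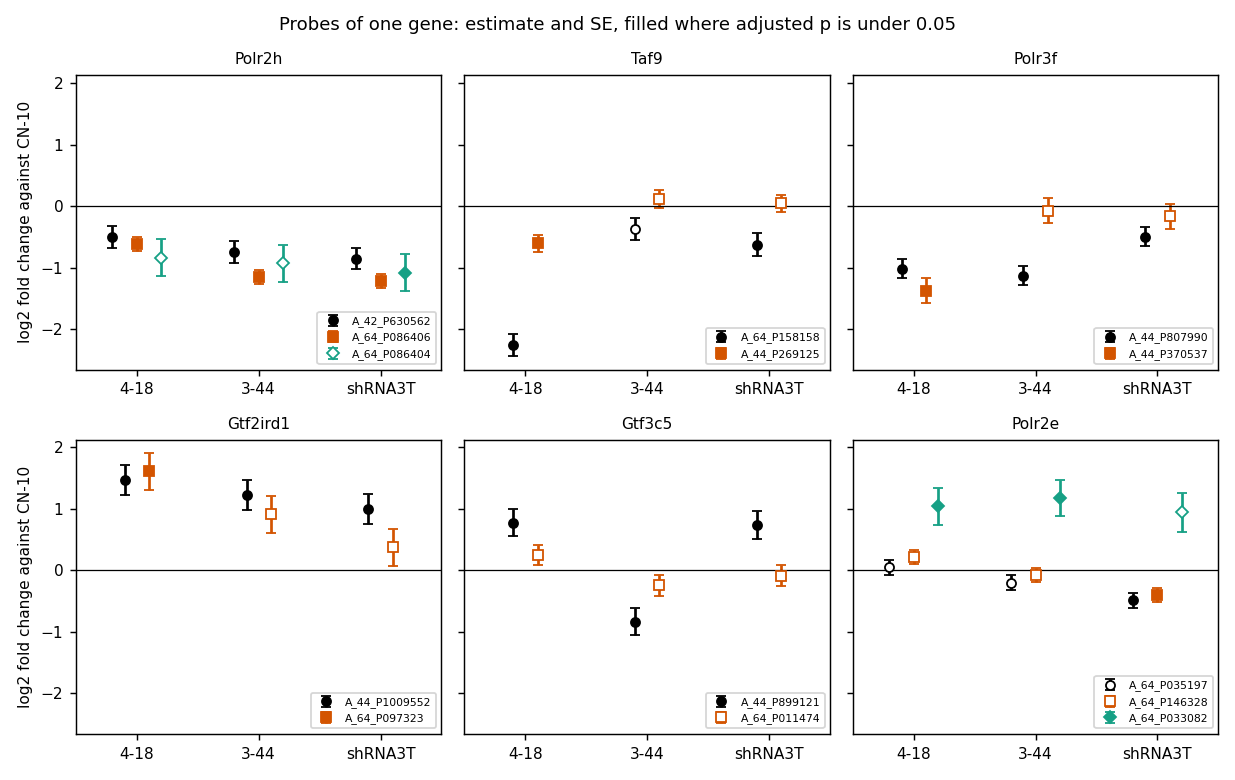
Log2 fold change against CN-10 with its SE for each probe of 6 genes (markers, 1 per probe, filled where the adjusted p is under 0.05). The 3 Polr2h probes lie together below 0, the Taf9 probes are apart in 4-18 (-2.26 and -0.61), and the Polr2e probes lie on either side of 0 in shRNA3T.

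Silenced groups were also set against each other, with differences of means that leave out the CN-10 arrays, although these arrays entered the normalisation and the shared spread. Shares among genes above background on every array were not counted for these comparisons. In 4-18 against 3-44, 13 genes were higher and 7 lower (19.1% and 10.3% of the 68), where 12.4% of all genes were higher and 10.1% lower. The 3 past 2-fold (4.98% of all genes) were Gtf3c5 (1.60), Polr3g (-1.07) and the Taf9 probe named above (-1.88). That split became 9 higher and 4 lower with the 75th percentile, 7 and 9 with cyclic loess, 4 and 15 with a common median (7 and 11 without 4-18 replicate 4), 1 and 10 with the deposited values (1 and 20 without it) and 4 and 5 in a fit on these 2 groups alone. In 4-18 against shRNA3T, 13 were higher and 5 lower (19.1% and 7.35%), where 11.3% and 9.24% of all genes were, and 2 passed 2-fold against 4.56% of all genes. Here the split became 9 and 6 with the 75th percentile or cyclic loess, 3 and 14 with a common median (11 and 9 without 4-18 replicate 4) and 0 and 13 with the deposited values (0 and 32). So in both comparisons the side with more genes depended on the scaling. In 3-44 against shRNA3T, which carry the same plasmid, 5 were higher and 4 lower, where 5.36% and 5.57% of all genes were, and 2 passed 2-fold against 2.12%. With cyclic loess that split was 5 and 6.

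Partners that the name rule does not take in were read from a list of 30 genes, 26 of them on the array. In 4-18, 2 rose and 4 fell, in 3-44 1 rose and 0 fell, and in shRNA3T 0 rose and 3 fell, where 11.6% of all genes rose and 12.4% fell in 4-18, 3.45% and 4.69% in 3-44 and 5.13% and 7.04% in shRNA3T. Pol I subunits under older names fell in shRNA3T: Cd3eap by 0.81, Twistnb by 1.11 and Znrd1 by 0.40 on the log2 scale (adjusted p = 0.000129, 0.00135 and 0.0303), and Cd3eap fell by 0.51 in 4-18 (adjusted p = 0.0028). Of the 3 Pol I genes inside the name rule, 1 rose in shRNA3T (Polr1b, by 1.07) and 0 fell. Tbp, the TATA-binding protein, fell by 0.32 in 4-18 (adjusted p = 0.0293). Snapc3 fell by 1.17 and Snapc2 rose by 1.14 in 4-18, both parts of the complex that serves small nuclear RNA genes. The partners named here were picked out after their values were seen and were not followed through the alternative settings.

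Of the assembly factors on a list of 21 genes, 16 were on the array, Pdrg1 among them. In 4-18, 2 rose and 4 fell, in 3-44 0 rose and 2 fell, and in shRNA3T 0 rose and 1 fell, beside the same shares of all genes. The risers were Rpap1 by 0.80 and Rpap2 by 0.58 on the log2 scale (adjusted p = 0.00205 and 0.0123), both Pol II-associated proteins. Tti1, a subunit of the TTT complex, fell in 4-18 by 1.44 (adjusted p = 2.8e-05) and Pfdn6, a prefoldin subunit, by 1.03 (adjusted p = 0.000807) on the log2 scale. Ruvbl1, an R2TP ATPase, fell by 0.43 in 3-44 and 0.67 in shRNA3T (adjusted p = 0.0355 and 0.00141). Rpap3, which links R2TP to chaperones, fell in 3-44 by 0.59 (adjusted p = 0.0110). Apart from Pdrg1, the assembly factors named here were likewise picked out after their values were seen, with no alternative settings run.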

How the data were processed

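RNA from 4 biological replicates of each of 4 groups of H35 cells was hybridised to one-colour Agilent rat arrays. The authors quantified the scans with Feature Extraction 10.7.3.1 (per the file headers, probe positions on rn4), so the deposited intensity values per spot carry no scaling between arrays, and the authors' processing notes name limma. The deposited flags, of other units, gave detection and outlier spots. The deposited series table holds log2 values whose decimal points were restored here. They track the normexp log2 values (Pearson r from 0.99986 to 0.99995), with array medians from 7.43 to 8.96, no scaling between arrays and unstated centring, and served as an alternative. Here signals were corrected with normexp (offset 50), quantile normalised, outlier spots set aside and spots of a probe averaged. limma 3.58.1 in R 4.3.3 fitted group means over 16 arrays, and eBayes p-values were Benjamini-Hochberg adjusted over all 30367 probes (0.05, and 2-fold for the stricter call). The number of arrays limits the precision. The fit was tested on simulated data. The members and gene lists were chosen with earlier results of these data known. Named genes were the largest and second largest subunits, the shared subunits, Polr3g and Polr3gl, the 5 highest and 5 lowest changed members of each comparison with CN-10 that were above background in a whole group, every member past 2-fold in any comparison, members with probes called in opposite directions (0 found) and Pdrg1. RefSeq tables on GRCr8 matched the accessions of 84 of 95 probes, and 80 kept the array's symbol. The alternatives covered scaling, background offset, probe choice, filters, fit and single arrays.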

Additional observations from a re-analysis of the deposited data

Results flagged for a closer look

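Within a group of 4 arrays, an array was singled out where its gap to the nearest other over the group's range exceeded Dixon's 95% critical value, which chance does in about 1 in 20 groups. This held in 19 of 108 groups tested, and in 16 of the 19 the array was replicate 1. For Pdrg1 the ratio was 0.947 in 4-18, 0.913 in 3-44 and 0.879 in shRNA3T, each for replicate 1. Polr2h gave 0.838 in CN-10 and 0.905 in 3-44, Polr2f gave 0.910 in 4-18 and 0.906 in 3-44, and Gtf2f1 gave 0.858 in 4-18 and 0.989 in 3-44, all for replicate 1. In shRNA3T replicate 1 stood apart for Gtf2b (0.885), Gtf2f2 (0.916), Gtf2ird1 (0.937), Polr1a (0.972) and Polr2l (0.928), and in 3-44 for Polr3a (0.844) and Polr3g (0.889). The others were Gtf2f2 in 3-44 replicate 2 (0.923), Gtf2h1 in 4-18 replicate 2 (0.846) and Polr1b in 3-44 replicate 3 (0.840).

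Silenced groups differed from each other by limma's test of the difference for 5 genes past 2-fold. Gtf3c5 differed by 1.60 on the log2 scale between 4-18 and 3-44 and by -1.57 between 3-44 and shRNA3T. Polr3g differed by -1.07 between 4-18 and 3-44, Polr1b by -1.06 between 3-44 and shRNA3T, and Taf2 by -1.14 between 4-18 and shRNA3T. The Taf9 probe with the Ak6 accession differed by -1.88 between 4-18 and 3-44 and by -1.63 between 4-18 and shRNA3T.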

How the results depend on the processing

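Of 34 changes called for named genes against CN-10, 3 passed the test under every setting tried (Polr2i, Polr3f and Taf9 in 4-18, the last by its brighter probe or, in the setting that swapped them, the other), 31 lost it under some setting and 4 changed sign. Of the other results for named genes, 14 passed under some setting, among them Polr1e in 4-18 and Taf6l in shRNA3T under 12 of 34 and Polr2f in shRNA3T under 10. Gtf2f2 in 4-18 became -0.063 with the 75th percentile, Polr3d in 4-18 -0.16 with the deposited values (-0.21 without 4-18 replicate 4), Polr2e in shRNA3T 0.21 with the mean of its probes and Taf9 in shRNA3T 0.045 by the other probe. The causes were not tested. The median of all genes in 4-18 moved from 0.00 to 0.19 with the 75th percentile, 0.37 with a common median and 0.13 with the deposited values (0.32 and -0.27 without 4-18 replicate 4), and in shRNA3T from -0.01 to -0.23 with the 75th percentile.

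The number of changed members, in the order 4-18, 3-44 and shRNA3T against CN-10 and then 4-18 against 3-44, 3-44 against shRNA3T and 4-18 against shRNA3T, was 21, 11, 16, 20, 9 and 18. With a test against a fold of 1.2 it was 8, 3, 1, 8, 1 and 4. With the 75th percentile 3-44 had 4 and 4-18 against 3-44 had 13. With a common median 3-44 had 2, shRNA3T 0 and 3-44 against shRNA3T 1. With the deposited values the counts were 0 in 3-44 and in shRNA3T, 11 in 4-18 against 3-44 and 1 in 3-44 against shRNA3T, and without 4-18 replicate 4 they were 40 in 4-18, 3 in 3-44, 8 in shRNA3T, 5 in 3-44 against shRNA3T and 32 in 4-18 against shRNA3T. Array weights gave 26 in shRNA3T and 23 in 3-44 against shRNA3T, and a fit on the compared groups alone gave 9 in 4-18 against 3-44. Alternatives that leave out 4-18 replicate 4 together with another choice, and the Taf9 probe swap, were chosen after seeing the data.

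The members' median log2 fold change in 4-18 was -0.35 with a common median (-0.13 without 4-18 replicate 4), -0.60 with the deposited values and -0.74 with these and without that array. In 3-44 it was -0.18 with the deposited values, with or without that array, and in shRNA3T -0.16 with the 75th percentile. Between 4-18 and 3-44 it was -0.26 with a common median (0.011 without 4-18 replicate 4) and -0.37 with the deposited values (-0.45). Between 4-18 and shRNA3T it was -0.29 (-0.054) and -0.51 (-0.63), and between 3-44 and shRNA3T 0.071 with the 75th percentile and -0.083 with the deposited values, with or without that array.

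Pdrg1 passed the test in 4-18 with the 75th percentile (-0.82), a common median (-1.27, or -1.05 without 4-18 replicate 4) and the deposited values (-1.52, or -1.65). It passed in shRNA3T with the 75th percentile (-0.98), in 3-44 and shRNA3T with array weights (-0.84 and -0.77) and with only the compared groups in the fit (-0.99 and -0.85). Nothing in the labels ties arrays of the same replicate number. Deviations of same-numbered arrays correlated at 0.19 to 0.50 for replicate 1, over 0.1 in 6 of 6 pairs, but over 0.1 in only 4, 2 and 3 of 6 pairs for replicates 2, 3 and 4 (lowest -0.13), and 8 of 16 arrays correlated best with their own number, so the numbers were not used as pairs. With the replicate block 25, 11 and 20 members changed against CN-10, and Pdrg1 stood at -0.77, -0.99 and -0.85 (limma, adjusted p = 0.0176, 0.0108 and 0.0183).

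Leaving out arrays gave 12 to 27, 4 to 14, 9 to 19, 13 to 23, 4 to 11 and 14 to 23 changed members in the order above. The count for 4-18 was 12 without CN-10 replicate 3, that for 4-18 against 3-44 was 13 without 3-44 replicate 4 or 4-18 replicate 3, and that for 3-44 against shRNA3T was 5 without shRNA3T replicate 2 or 3 and 4 without replicate 4. The members' medians ran from -0.08 to -0.03, -0.12 to -0.00, -0.09 to 0.00, 0.11 to 0.15, 0.0061 to 0.075 and 0.03 to 0.13. Pdrg1 ran from -0.92 to -0.33 in 4-18, -1.09 to -0.74 in 3-44 and -0.93 to -0.72 in shRNA3T.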
